A study of Mus musculus with 160 samples.

Results

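Mast cell proteases and receptors were examined in the distal colon of mice from 4 knockout lines. The 8 genes were chosen by name: the chymases *Mcpt1*, *Mcpt2*, *Mcpt4* and *Cma1*, the carboxypeptidase *Cpa3*, the tryptase *Tpsb2*, the growth factor receptor *Kit* and the IgE receptor subunit *Fcer1a*. All 8 were found among the 39179 genes of the count files. RNA-seq of ribosome-depleted RNA had been made from 160 mice, each mouse giving 1 sample of whole distal colon. The *Nckap1l* line (HEM1 in the labels) had 16 homozygous knockout mice, 12 male and 4 female, and 15 wild-type mice, 7 male and 8 female. In the *Dock2* line there were 18 knockout mice, 10 male and 8 female, and 24 wild-type mice, 12 of each sex. The *Gpsm3* line had 20 knockout and 20 wild-type males, and the *Dok3* line 26 knockout and 21 wild-type mice, all labelled male. The strain was labelled 129 in the *Dok3* line and C57BL6/J in the other lines. Every knockout was in the whole animal and came from an existing model. Founders of all lines had been re-derived with C57BL6/J females, and wild types were littermates from crosses of heterozygotes. Colitis was induced in these lines with dextran sulfate sodium (DSS), a polymer that injures the colonic epithelium, by the labels at 3% for *Dock2* and *Gpsm3* and 3.5% for *Dok3*, and tissue was taken at day 10, or day 12 for *Nckap1l*. The study's methods add that the mice were young adults, that a somewhat lower dose was used for *Nckap1l*, and that a first round of *Dok3* mice had the same dose as *Dock2* and *Gpsm3*. Which samples came from that round, and which mice drank DSS, is not given by the labels, so all mice of a line were analysed together. Line and strain change together in the *Dok3* line, and line and collection day in the *Nckap1l* line, and these cannot be told apart.

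Mast cells are tissue-resident immune cells that leave the bone marrow as progenitors and mature in the tissue under stem cell factor, the ligand of KIT. They store proteases bound to serglycin in granules and release them when IgE on the high-affinity receptor FcεRI is cross-linked. In mice, mucosal mast cells of the gut epithelium and lamina propria are known for *Mcpt1* and *Mcpt2*, and connective tissue mast cells of the skin, muscle layers and serosa for *Mcpt4*, *Cma1*, *Cpa3* and *Tpsb2*. *Kit* is not particular to mast cells: in the gut wall it is also carried by the interstitial cells of Cajal, pacemaker cells marked by the chloride channel gene *Ano1*, and by deep crypt secretory cells of the colon. In whole tissue, fewer mast cells and less RNA per mast cell cannot be told apart.

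The 4 chymase genes lie in 1 cluster on chromosome 14 of the mouse genome GRCm38 (mm10), at 14:56017971-56020384 on the plus strand for *Mcpt1* (ENSMUSG00000022227), 14:56042041-56044642 on the plus strand for *Mcpt2* (ENSMUSG00000022226), 14:56059629-56062313 on the minus strand for *Mcpt4* (ENSMUSG00000061068) and 14:55941451-55944675 on the minus strand for *Cma1* (ENSMUSG00000022225). *Cpa3* (ENSMUSG00000001865) spans 3:20215620-20242181 on the minus strand and *Tpsb2* (ENSMUSG00000033825) 17:25366305-25369098 on the plus strand. The receptor genes are *Kit* (ENSMUSG00000005672) at 5:75574916-75656722 on the plus strand and *Fcer1a* (ENSMUSG00000005339) at 1:173221284-173227214 on the minus strand. Reads of 100 bases could be assigned to single genes of this family: of all exonic stretches of that length, 1 of 1009 in *Mcpt4* also occurred in another annotated gene (*Cma2*), and none did in the other 7 genes.

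The 250 bases before the start site are shown for *Mcpt1* and *Mcpt4*, a mucosal and a connective tissue chymase gene that lie in the same cluster, and for *Cma1* and *Cpa3*. They are the gene's strand, 5′ to 3′, from RefSeq on GRCm38.p6, at 14:56017714-56017963, 14:56062311-56062560, 14:55944676-55944925 and 3:20242182-20242431. Capitals mark a GATA motif, the short DNA word bound by GATA factors such as GATA2, which mast cells require. The motif was searched on both strands as TGATAA, and also with the first base changed (AGATAA), with the last base changed (TGATAG) or with both changed (AGATAG).
Mcpt1: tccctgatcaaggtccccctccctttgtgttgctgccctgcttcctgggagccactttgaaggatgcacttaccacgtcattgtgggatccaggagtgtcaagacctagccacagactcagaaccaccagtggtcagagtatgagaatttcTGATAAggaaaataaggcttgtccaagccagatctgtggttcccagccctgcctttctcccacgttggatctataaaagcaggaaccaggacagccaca
Mcpt4: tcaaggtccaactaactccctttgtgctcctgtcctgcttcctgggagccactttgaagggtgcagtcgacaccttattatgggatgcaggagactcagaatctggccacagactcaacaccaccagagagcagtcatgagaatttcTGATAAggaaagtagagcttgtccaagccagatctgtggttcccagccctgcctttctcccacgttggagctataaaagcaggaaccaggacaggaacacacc
Cma1: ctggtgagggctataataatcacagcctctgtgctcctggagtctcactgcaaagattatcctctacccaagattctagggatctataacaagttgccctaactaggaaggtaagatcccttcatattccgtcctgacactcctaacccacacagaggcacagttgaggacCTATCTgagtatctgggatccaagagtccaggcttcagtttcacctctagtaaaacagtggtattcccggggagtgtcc
Cpa3: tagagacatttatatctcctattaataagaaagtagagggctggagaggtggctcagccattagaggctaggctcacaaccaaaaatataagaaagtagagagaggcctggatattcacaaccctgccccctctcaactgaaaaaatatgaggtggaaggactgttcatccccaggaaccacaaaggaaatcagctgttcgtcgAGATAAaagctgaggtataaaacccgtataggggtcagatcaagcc
When aligned, the *Mcpt1* and *Mcpt4* windows were identical in 208 of 254 columns (81.9%), with 1 unbroken run of 53 shared bases. All other pairs among the 6 genes with a window shared 42.5% to 51.8% of columns. The GATA motif stood 99 bases before the start site of *Mcpt1* (position -99) and at -103 in *Mcpt4*, -79 in *Cma1*, -46 in *Cpa3* and -92 in *Fcer1a*. In all, 5 of the 6 genes held it, against 26.5% of the 32841 promoter windows of the same length, and the windows of *Kit* did not. *Mcpt2* and *Tpsb2* are named only.

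Total counts ran from 4344988 to 19993833 per sample (median 15989625.5), so 3 counts corresponded to 0.15 to 0.69 CPM, the usual scaling of a gene's reads by its sample's total. The knocked-out genes were lower on average in knockout samples of each line, at 20.86 ± 18.24 (SD, n = 16) against 43.1 ± 32.04 CPM (n = 15) for *Nckap1l*, 24.39 ± 10.18 (n = 18) against 37.49 ± 13.56 (n = 24) for *Dock2*, 0.79 ± 0.84 (n = 20) against 3.35 ± 1.39 (n = 20) for *Gpsm3* and 4.42 ± 7.52 (n = 26) against 6.16 ± 6.02 (n = 21) for *Dok3*. Only the fall of *Gpsm3* passed the threshold (edgeR quasi-likelihood test, adjusted p = 1e-04, against 0.963, 0.182 and 1 in the *Nckap1l*, *Dock2* and *Dok3* lines). The kind of mutation and the part of each gene it affects are not given in the sources used here. In every line the highest knockout library lay above the mean of the wild types, at 71.18 CPM for *Nckap1l*, 48.63 for *Dock2*, 3.55 for *Gpsm3* and 40.25 for *Dok3*, so directions rest on the labels. In 5 *Dok3* samples the sex markers did not match the label male, and none in the other lines.

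A set of 32 libraries stood apart from the rest. They held *Krt5*, a keratin of stratified squamous epithelium, at 213 CPM or more, while the other 128 libraries held at most 9.66 CPM. Keratins and cornified envelope genes of skin summed to 797 to 13100 CPM in these 32 libraries and to 3.56 to 59.9 CPM in the others. Striated muscle genes were also high there (median sum 2540 against 15.5 CPM), smooth muscle genes higher (7360 against 5190 CPM) and colon epithelium genes lower (4600 against 7960 CPM). By line, 15 of 31 *Nckap1l* samples belonged to the set, 5 of 42 *Dock2*, 3 of 40 *Gpsm3* and 9 of 47 *Dok3* samples. Within the *Nckap1l* line they made up 9 of 12 females. The sample numbers in the labels fall into separate runs, 3 in *Nckap1l*, whose meaning is not stated, and 13 of the 14 samples of its first run belonged to the set. The limit of 100 CPM was set after these values were seen, and the main results are given with and without the 32 libraries.

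*Kit* had the highest level per length, with a median of 6.77 CPM per kilobase of exon over the 160 samples, followed by *Cma1* at 3.35, *Mcpt1* at 0.984, *Mcpt2* at 0.513, *Cpa3* at 0.387, *Mcpt4* at 0.24, *Tpsb2* at 0.205 and *Fcer1a* at 0.0643. *Ano1*, a marker of interstitial cells of Cajal, stood at 67.9. In the 32 libraries rich in skin keratins the order was another, with *Mcpt4* first at 7.78 CPM per kilobase, then *Cma1* at 6.99, *Cpa3* at 6.18, *Kit* at 4.62, *Tpsb2* at 3.07, *Mcpt1* at 0.545, *Fcer1a* at 0.495 and *Mcpt2* at 0.386. In raw counts, the median sample held 912.5 counts of *Kit*, 53 of *Cma1*, 14.5 of *Mcpt1*, 9.5 of *Cpa3*, 8 of *Mcpt2*, 5 of *Tpsb2*, 4 of *Mcpt4* and 1 of *Fcer1a*. Every sample held *Kit* and *Cma1*, whereas *Fcer1a* was under 3 counts in 108 of 160 samples and *Mcpt4* in 61. At this depth, therefore, most differences of *Fcer1a* were not detectable.

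**Figure D1:**
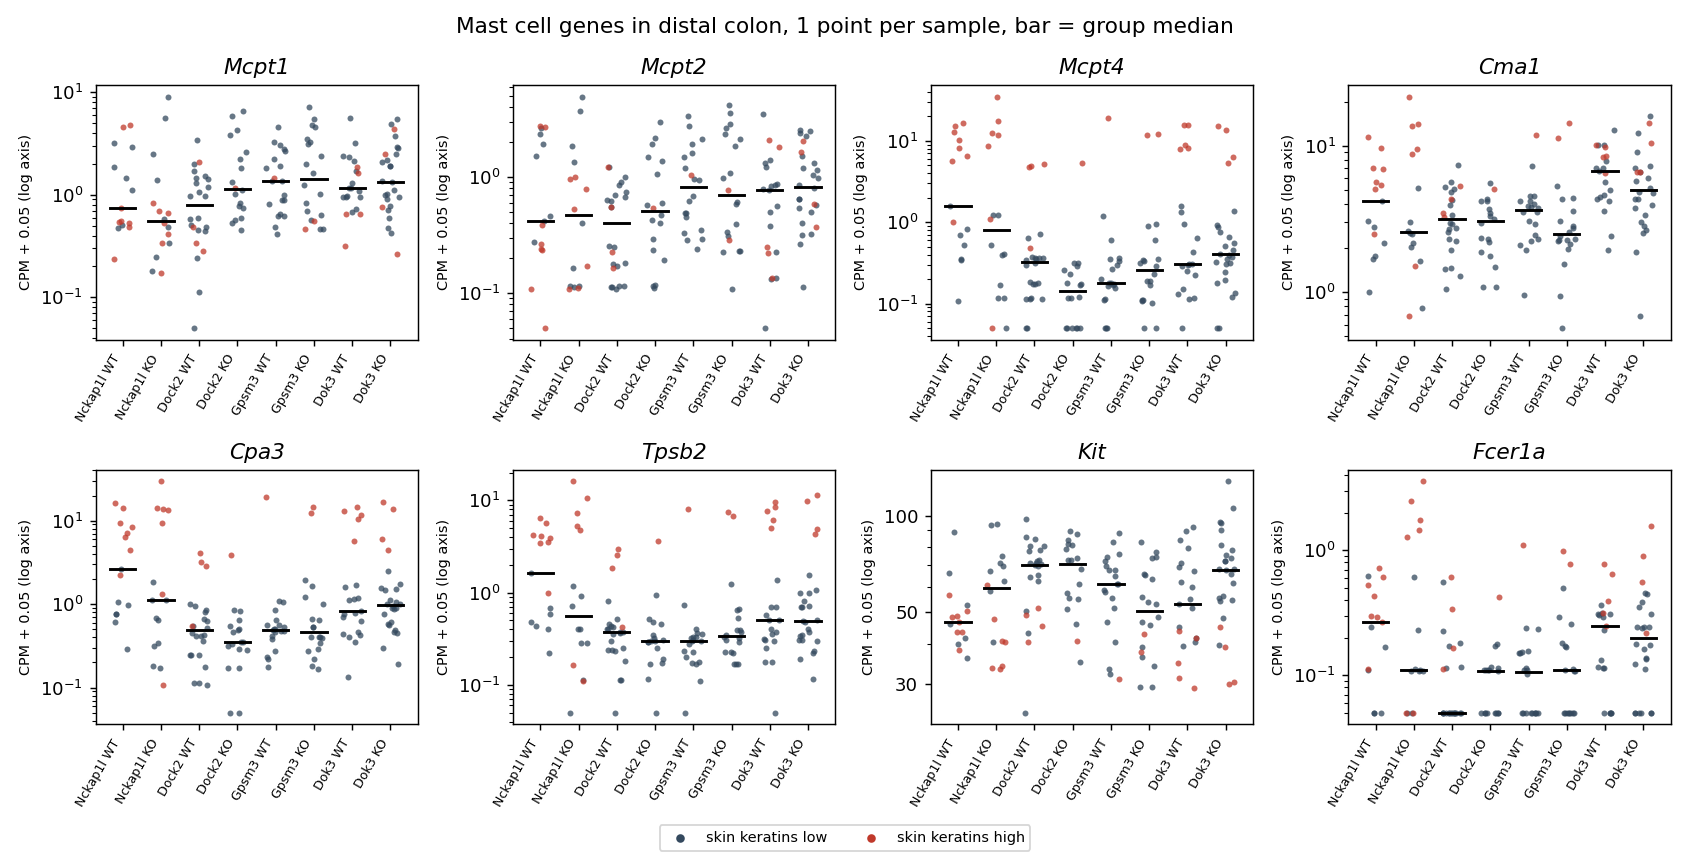
Level of each gene in every sample (CPM plus 0.05, log axis), by line and genotype, with the group median as a bar and the 32 libraries rich in skin keratins in red. The red points of *Mcpt4*, *Cpa3* and *Tpsb2* lie above nearly all others (28 of 32 in each gene), those of *Kit* lie low, and those of *Mcpt1* and *Mcpt2* are mixed with the rest.

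Mucosal mast cell proteases were low in all groups. *Mcpt1*, a chymase of intraepithelial mast cells, ranged in wild-type samples from 0.187 to 4.72 CPM (median 0.701) in the *Nckap1l* line, from 0 to 3.39 (0.741) in the *Dock2* line, from 0.365 to 4.5 (1.3) in the *Gpsm3* line and from 0.265 to 5.56 (1.11) in the *Dok3* line. In knockout samples the ranges were 0.123 to 9.07 CPM (median 0.505), 0.405 to 6.51 (1.1), 0.409 to 7.14 (1.39) and 0.213 to 5.42 (1.29) in the same order. All 8 groups overlapped. *Mcpt2*, its neighbour in the cluster, had group medians from 0.35 CPM in *Dock2* wild types to 0.777 CPM in the libraries labelled *Dok3* knockout, and no sample exceeded 4.89 CPM. Neither gene was raised in the libraries rich in skin keratins, where *Mcpt1* had a median of 0.553 CPM against 1.13 in the other samples and *Mcpt2* 0.41 against 0.577.

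The proteases of connective tissue mast cells fell into separate levels. *Mcpt4*, a chymase of connective tissue mast cells, had a median of 8.62 CPM in the 32 libraries rich in skin keratins and 0.204 CPM in the other 128, and 28 of the 32 lay above every other library. The highest value, 35.1 CPM, was in a *Nckap1l* knockout sample. *Cpa3*, which trims peptides at their carboxyl end, stood at 9.37 against 0.471 CPM and *Tpsb2*, a tryptase stored as a tetramer on heparin, at 4.9 against 0.283 CPM, again with 28 of 32 libraries above all others in each. *Cma1*, also called mast cell protease 5, differed less, at 7.62 against 3.0 CPM, and 1 of the 32 libraries exceeded all others. *Fcer1a*, the IgE-binding chain of FcεRI, stood at 0.494 against 0.0595 CPM, with 13 of 32 above all others. Some other mast cell genes were high at the same places. The receptor gene *Mrgprb2* had a median of 0.873 CPM in these libraries and 0 in the others, *Mrgprb1* 2.49 and 0, and *Ms4a2*, the β chain of FcεRI, 0.583 and 0. They belong to a list of 23 genes, which as a whole summed to a median of 279 against 254 CPM. By line the sum was 264 against 263 CPM in *Nckap1l*, 227 against 253 in *Dock2*, 245 against 246 in *Gpsm3* and 428 against 261 in *Dok3*. *Cma2*, *Mcpt9* and *Ctsg* of that list had a median count of 0. *Dct*, a melanocyte gene, had 1.85 against 0.293 CPM. The basophil genes *Mcpt8*, *Prss34* and *Cd200r3* summed to 0.928 to 9.41 CPM in the 32 libraries and 0 to 2.86 CPM in the others, with *Prss34* at a median of 0. The part of skin tissue or of muscle in these levels was not tested.

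Among the 128 other libraries these genes were sparse. *Mcpt4* reached at most 1.54 CPM and was at 0 in 17 of them, *Cpa3* at most 2.62 CPM, and *Tpsb2* at most 1.6 CPM. *Cma1* was the exception, present in all 128 at 0.518 to 16 CPM.

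*Kit* was measured more precisely than the proteases. In wild-type samples it ranged from 35.9 to 89.1 CPM (median 46.7) in the *Nckap1l* line, from 24.3 to 97.6 (70.3) in *Dock2*, from 31.0 to 88.0 (61.4) in *Gpsm3* and from 29.1 to 91.9 (53.1) in *Dok3*. In knockout samples it ranged from 33.3 to 94.0 CPM (59.5), 35.1 to 89.5 (70.5), 29.2 to 83.0 (50.6) and 29.8 to 128.0 (67.8). All 32 libraries rich in skin keratins were below the median of the others, at 41.2 against 66.6 CPM. Its ligand gene *Kitl* was lower there too, with a median of 109 against 142 CPM.

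The first comparison asked whether loss of each gene changed mast cell transcripts. None of the members passed the threshold in any line (edgeR quasi-likelihood test, adjusted p under 0.05 over all genes), and at an unadjusted p under 0.05 there was 1, *Mcpt1* in the *Dock2* line. DESeq2 and limma-voom also called 0 members in each line. The background was low as well, with 0.00526% of 19009 genes called in *Nckap1l*, 0.0333% of 18006 in *Dock2*, 0.00569% of 17560 in *Gpsm3* and 0% of 17612 in *Dok3*. The filter on low counts kept 7 of the 8 members in *Nckap1l*, all but *Fcer1a*, 4 in *Dock2* and in *Gpsm3* (*Mcpt1*, *Mcpt2*, *Cma1* and *Kit*) and 5 in *Dok3*, where *Cpa3* was added.

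In the *Dock2* line, the median of *Mcpt1* was 1.1 CPM with the knockout and 0.741 CPM without, and the ranges overlapped. The log2 fold change was 1.06 ± 0.38 (SE, adjusted p = 0.62 by edgeR, n = 18 against 24). *Mcpt2* had 0.82 ± 0.42 (adjusted p = 0.967), *Cma1* -0.17 ± 0.22 and *Kit* 0.06 ± 0.11. Without the 5 libraries rich in skin keratins, *Mcpt1* stood at 0.99 ± 0.40 (adjusted p = 0.672), and in males alone at 1.48 ± 0.41 (adjusted p = 0.307).

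*Gpsm3* and *Dok3* knockouts had smaller estimates. For *Mcpt1* the log2 fold change was 0.50 ± 0.37 (SE) with loss of *Gpsm3* and 0.31 ± 0.31 in the libraries labelled *Dok3* knockout, and in the same order the others gave 0.30 ± 0.42 and 0.32 ± 0.36 for *Mcpt2*, -0.07 ± 0.29 and -0.18 ± 0.23 for *Cma1*, and -0.16 ± 0.14 and 0.26 ± 0.14 for *Kit* (adjusted p from 0.936 to 1, edgeR). *Cpa3* in the *Dok3* line gave -0.46 ± 0.54, and 0.29 without the 9 libraries rich in skin keratins.

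In the *Nckap1l* line the standard errors were the largest. *Mcpt4* gave 0.59 ± 1.11, *Cpa3* 0.59 ± 0.90, *Tpsb2* 0.38 ± 0.88, *Cma1* 0.28 ± 0.52, *Mcpt1* -0.23 ± 0.71, *Mcpt2* -0.30 ± 0.73 and *Kit* 0.26 ± 0.16 on the log2 scale (adjusted p = 0.999 for each, edgeR). Directions of the connective tissue proteases did not hold: limma-voom gave -1.09 for *Mcpt4*, -0.82 for *Cpa3* and -0.79 for *Tpsb2*. Without the 15 libraries rich in skin keratins (9 knockout and 7 wild-type samples left), *Kit* gave 0.48 ± 0.18 (adjusted p = 0.35), where the median was 69.7 CPM after loss of the gene and 46.1 CPM without it. *Mcpt4* (-0.60 ± 0.71), *Cpa3* (-0.69 ± 0.55) and *Tpsb2* (-0.64 ± 0.59) were then below 0.

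Whether the knockout effect differed among the lines was tested in 1 fit of all 160 samples. No member passed (edgeR, 8 tested, 0 at an unadjusted p under 0.05), nor did any with limma-voom, while 0.718% of all 20047 genes were called. *Kit* had the smallest p, at 0.0889 (adjusted p = 0.991).

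**Figure D2:**
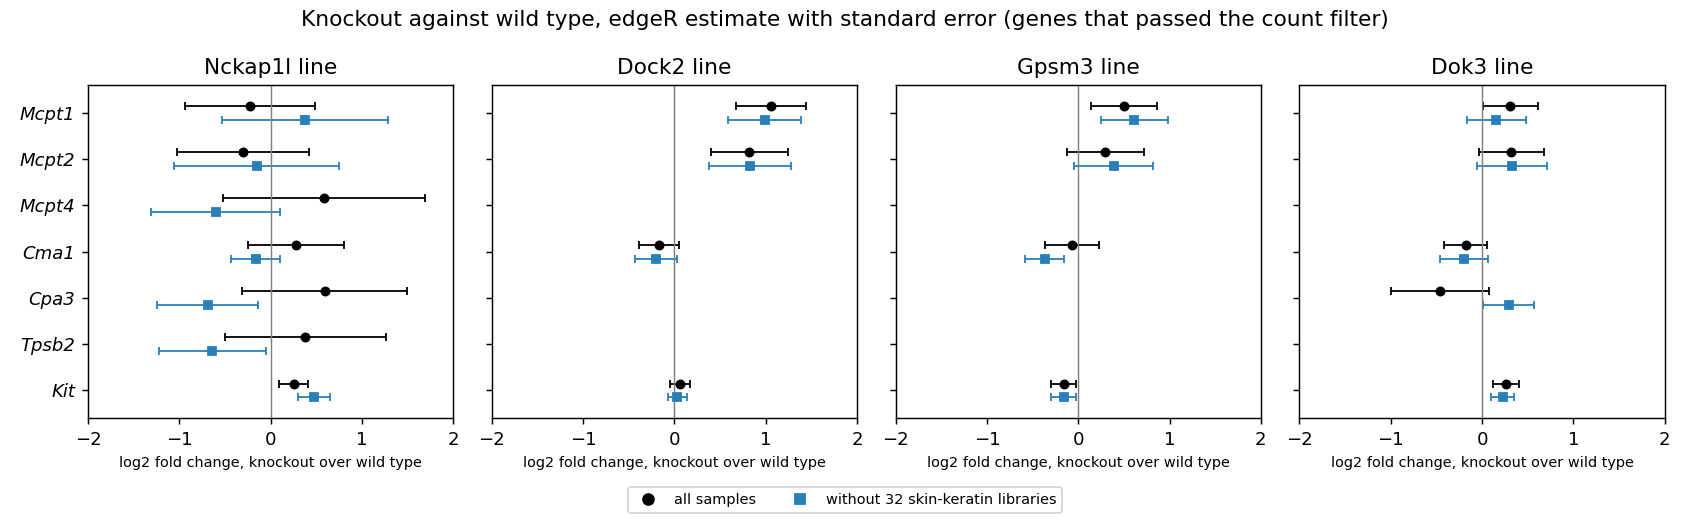
Knockout over wild type on the log2 scale in each line, edgeR estimate with its standard error, for genes that passed the filter on low counts. Black points are all samples and blue squares leave out the 32 libraries rich in skin keratins: no estimate passed the threshold, and in the *Nckap1l* line *Mcpt4*, *Cpa3* and *Tpsb2* change side.

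The second comparison set wild-type colon of the 129 line beside the C57BL6/J lines given DSS at 3%. *Cma1* was higher in *Dok3* wild types, from 1.89 to 12.8 CPM (median 6.69, n = 21), than in *Dock2* (0.999 to 7.3, median 3.08, n = 24) and *Gpsm3* wild types (0.91 to 11.7, median 3.57, n = 20). The ranges overlapped, with the middle of the *Dok3* samples above most of the others. The log2 fold change was 0.88 ± 0.21 (adjusted p = 0.000845, edgeR). *Cpa3* (1.53 ± 0.49, adjusted p = 0.0133) and *Tpsb2* (1.67 ± 0.48, adjusted p = 0.006) also passed, and *Mcpt4* (1.48 ± 0.62, adjusted p = 0.0614), *Mcpt1* (0.39 ± 0.32), *Mcpt2* (0.36 ± 0.39) and *Kit* (-0.08 ± 0.11) did not. With limma-voom *Mcpt4* passed too (1.83, adjusted p = 0.0199). So 3 of 7 members tested passed by edgeR, all higher, where 28.9% of all 19395 genes did.

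Libraries rich in skin keratins made up 5 of the 21 *Dok3* wild types, 4 of the 24 *Dock2* and 1 of the 20 *Gpsm3* wild types. Without them, *Cma1* was the one member of 7 that passed, where 16.1% of all genes did, at 0.74 ± 0.21 (adjusted p = 0.00919, edgeR), with 6.08 ± 3.00 CPM (SD, n = 16) in *Dok3*, 3.22 ± 1.69 (n = 20) in *Dock2* and 3.37 ± 1.37 (n = 19) in *Gpsm3*. *Cpa3* was then at 0.70 (adjusted p = 0.0818), *Mcpt4* at 1.03 (0.0701) and *Tpsb2* at 0.49 (0.289). The result for *Cma1* was as large in males alone without these libraries (0.76, adjusted p = 0.0109). In the knockout samples of the same lines, 0 members passed with all libraries (edgeR, 5 at an unadjusted p under 0.05), and without those rich in skin keratins *Cma1* (0.84, adjusted p = 0.00369), *Mcpt4* (1.19, 0.0348) and *Cpa3* (0.87, 0.0302) did, against 17.1% of all genes. In both genotypes, then, *Cma1* was higher in the *Dok3* line once those libraries were left out. Strain and line cannot be told apart here, and the dose of each *Dok3* sample is not known from the labels.

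The 2 C57BL6/J lines given the same dose served as a measure of how far lines differ. *Gpsm3* against *Dock2* wild types gave 0 members past the threshold by edgeR, DESeq2 and limma-voom, and 2 at an unadjusted p under 0.05, *Mcpt2* (1.40 ± 0.50, adjusted p = 0.551) and *Mcpt1* (0.98 ± 0.40, adjusted p = 0.746). Of all genes 0.139% were called. With a neutrophil marker score as a covariate, *Mcpt2* passed at 1.79 (adjusted p = 0.015).

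*Nckap1l* wild types, collected at day 12, differed more from the *Dock2* and *Gpsm3* wild types. *Mcpt4* was higher by 2.94 ± 0.90 on the log2 scale (adjusted p = 0.0119, edgeR), *Cpa3* by 2.37 ± 0.64 (0.00598) and *Tpsb2* by 2.30 ± 0.60 (0.00476), and *Kit* was lower (-0.40 ± 0.13, 0.0163), so 4 of 7 members passed where 31.5% of all genes did. *Mcpt4* ranged from 0.0566 to 16.6 CPM (median 1.54) in *Nckap1l* wild types, and its medians were 0.276 CPM in *Dock2* and 0.128 CPM in *Gpsm3*. Of the 15 *Nckap1l* wild types, 8 were rich in skin keratins. With those libraries left out in every line, *Mcpt4* (1.53 ± 0.45, adjusted p = 0.0236), *Cpa3* (1.13 ± 0.33, 0.021) and *Tpsb2* (1.18 ± 0.34, 0.0196) still passed with 7 *Nckap1l* samples, against 9.52% of all genes, and *Kit* (-0.29, 0.226) did not. None passed in males alone, nor without the first run of *Nckap1l* sample numbers, where *Mcpt4* was at -0.29, *Cpa3* at 0.33 and *Tpsb2* at 0.29. The sexes, the runs of sample numbers and the keratin-rich libraries overlap in this line, and their parts cannot be told apart. Without the keratin-rich libraries, 3 of 8 neutrophil markers were also called higher in *Nckap1l* wild types, with a median log2 fold change of 2.379 over the 8. The part of neutrophils in the protease values was not tested.

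**Figure D3:**
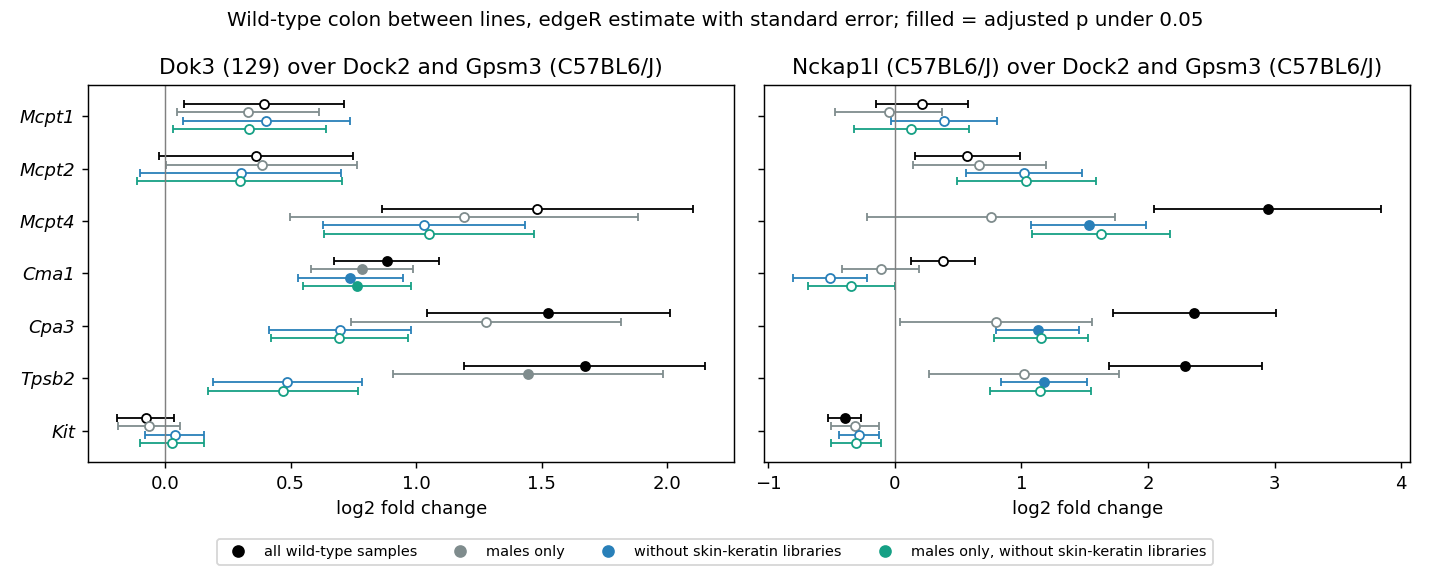
Difference of wild-type colon between lines on the log2 scale (edgeR estimate with its standard error, filled where adjusted p is under 0.05), for the *Dok3* line at left and the *Nckap1l* line at right, each over the *Dock2* and *Gpsm3* lines. *Cma1* stays filled in all 4 sets of samples at left, whereas at right *Mcpt4*, *Cpa3* and *Tpsb2* are filled in 2 of the 4.

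Males and females could be compared in the *Nckap1l* and *Dock2* lines. No member passed the threshold in either by edgeR, DESeq2 or limma-voom, against 0.237% and 9.79% of all genes. At an unadjusted p under 0.05 there were 0 in *Nckap1l* and 1 in *Dock2*: *Kit* was at -0.27 ± 0.11 in males over females (adjusted p = 0.106, edgeR). Without the keratin-rich libraries it was at -0.27 (adjusted p = 0.0625), where 17.9% of all genes were called.

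Across samples of 1 line, the mucosal proteases varied together. On log2 CPM, Pearson's r between *Mcpt1* and *Mcpt2* was 0.93 in *Nckap1l* (Spearman's rho 0.9, n = 31), 0.85 in *Dock2* (0.84, n = 42), 0.88 in *Gpsm3* (0.86, n = 40) and 0.74 in *Dok3* (0.74, n = 47). Each had a permutation p of 1e-05, the smallest that 100000 resamples allow, and an adjusted p of 2.7e-05 for r and 3.4e-05 for rho over the 64 relations computed (16 pairs in 4 lines). Leaving out the 2 samples farthest from the median of *Mcpt1* gave 0.91, 0.87, 0.85 and 0.7, and within single runs of sample numbers r lay between 0.67 and 1.00.

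Against the connective tissue proteases, the samples split into separate clusters by skin keratins, so no pooled value is given. Within the 128 other libraries, *Mcpt1* and *Cpa3* had r = 0.72 in *Nckap1l* (n = 16, rho 0.76, permutation p = 0.0018 and 0.001, adjusted p = 0.0045 and 0.0032), 0.67 in *Dock2* (n = 37, rho 0.74), 0.7 in *Gpsm3* (n = 37, rho 0.69) and 0.63 in *Dok3* (n = 38, rho 0.64). The permutation p was 1e-05 in *Dock2* and *Gpsm3* and 2e-05 in *Dok3*, with adjusted p from 5.3e-05 to 9.8e-05. Without the 2 farthest samples r was 0.69, 0.68, 0.7 and 0.68. *Mcpt1* and *Mcpt4*, whose promoter windows are the most alike, had r of 0.87, 0.4, 0.49 and 0.66 in the same order and rho of 0.89, 0.47, 0.41 and 0.58 (permutation p from 1e-05 to 0.014, adjusted p from 5.3e-05 to 0.023). Without the 2 farthest samples r was 0.84, 0.38, 0.48 and 0.61. *Cma1* and *Cpa3* passed in the *Dock2* line (r = 0.72, rho 0.73, permutation p = 1e-05, adjusted p = 5.3e-05 and 6.4e-05, r = 0.69 without the 2 farthest). In *Nckap1l* r was 0.26 (rho 0.24, permutation p = 0.34 and 0.37, adjusted p = 0.4 for both), and in *Gpsm3* and *Dok3* rho was 0.11 and 0.04 (permutation p = 0.52 and 0.81, adjusted p = 0.56 and 0.83). For *Cma1* and *Mcpt4* rho was 0.44 in *Nckap1l*, 0.59 in *Dock2*, -0.07 in *Gpsm3* and 0.02 in *Dok3*. For *Cma1* and *Tpsb2* it was 0.42, 0.21, -0.19 and -0.09 in the same order. Whether the lines differ in these pairs was not tested.

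**Figure D4:**
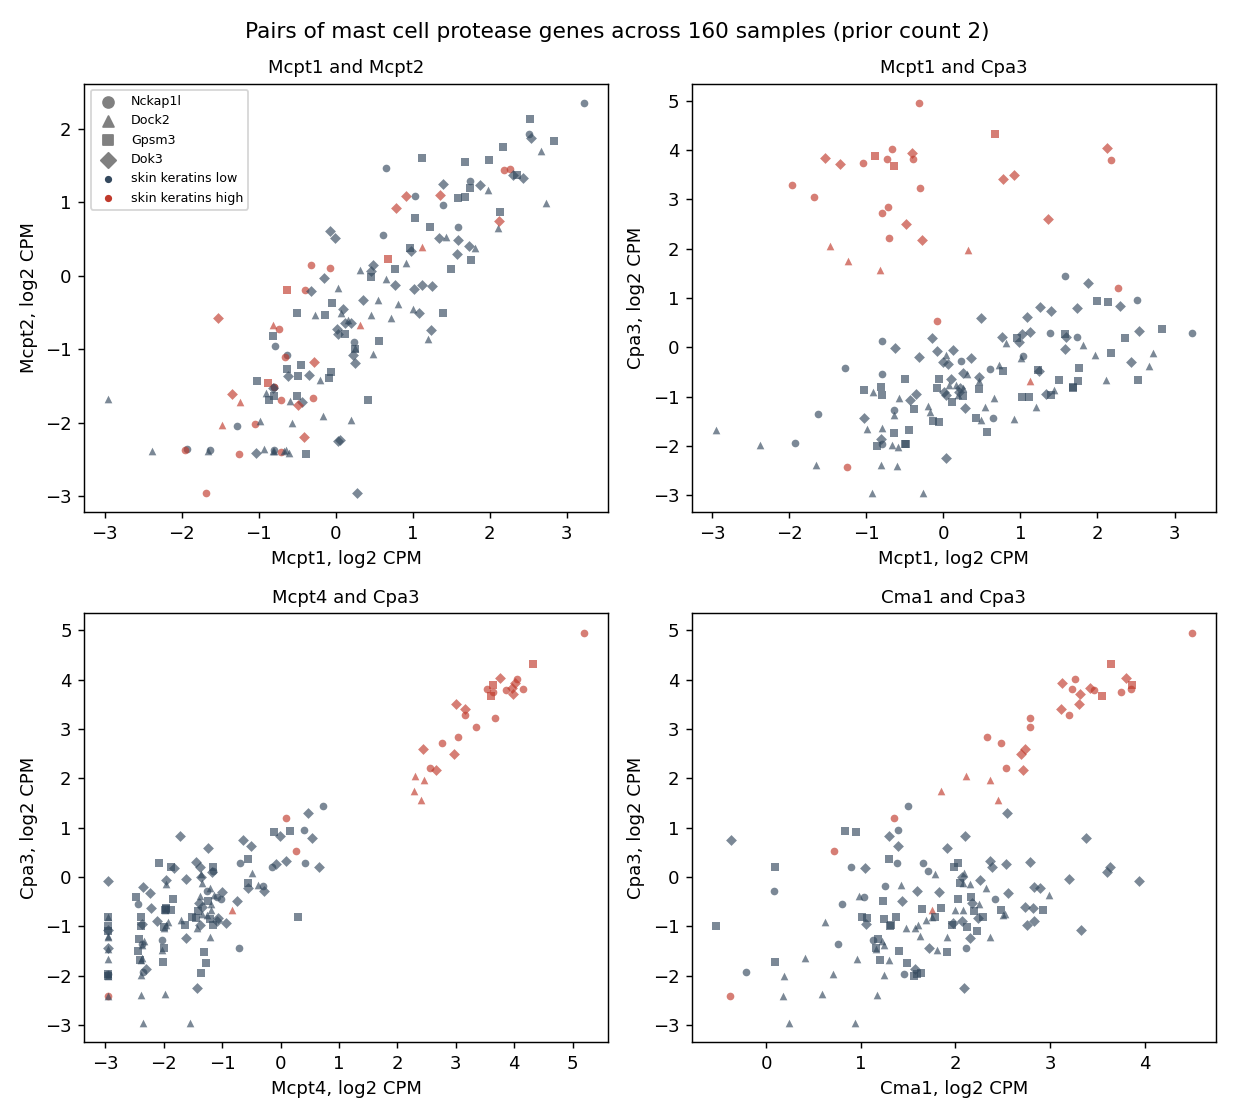
Pairs of protease genes over the 160 samples on log2 CPM (prior count 2), with symbols for the lines and red for the 32 libraries rich in skin keratins. *Mcpt1* and *Mcpt2* rise along 1 band in which both colours mix, while *Cpa3* and *Mcpt4* form a low cluster and a high red cluster.

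Mucosal proteases also went with neutrophil markers, the genes *S100a8*, *S100a9*, *Csf3r*, *Cxcr2*, *Mmp9*, *Retnlg*, *Ly6g* and *Clec4d* of an acute infiltrate. The mean log2 CPM of *Mcpt1* and *Mcpt2* and that of the 8 markers had r = 0.5 in *Nckap1l* (rho 0.56, permutation p = 0.0041 and 0.0012, adjusted p = 0.0062 and 0.0023), 0.63 in *Dock2* (rho 0.72, permutation p = 3e-05 and 1e-05, adjusted p = 7.1e-05 and 3.4e-05), 0.66 in *Gpsm3* (rho 0.67, permutation p = 2e-05 for both, adjusted p = 4.9e-05 and 6.4e-05) and 0.51 in *Dok3* (rho 0.54, permutation p = 0.00032 and 0.00019, adjusted p = 0.0006 and 0.00045). Leaving out the 2 samples farthest from the median of the protease mean gave 0.68, 0.63, 0.64 and 0.47. Within runs of sample numbers r lay between 0.41 and 0.79. Without the keratin-rich libraries r was 0.6, 0.66, 0.68 and 0.52 (permutation test, adjusted p from 5.3e-05 to 0.027). In the same libraries the mean of *Mcpt4*, *Cma1*, *Cpa3* and *Tpsb2* had r of 0.61, 0.74, 0.46 and 0.14 with the markers (adjusted p = 0.022, 5.3e-05, 0.0086 and 0.46). The relation was therefore not particular to the mucosal proteases, except that in *Dok3* only they passed. Which of these mice drank DSS is not known from the labels.

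*Kit* varied with *Ano1* in all 4 lines when all libraries were used. Their r was 0.72 in *Nckap1l* (rho 0.77), 0.67 in *Dock2* (rho 0.57), 0.8 in *Gpsm3* (rho 0.67) and 0.51 in *Dok3* (rho 0.7), with permutation p from 1e-05 to 0.00015 and adjusted p from 2.7e-05 to 0.00037. Leaving out the 2 samples farthest in *Kit* gave 0.7, 0.59, 0.76 and 0.71. The relation did not hold in the third run of *Nckap1l* sample numbers (r = -0.37, n = 8), and r lay between 0.4 and 0.86 in the other runs. Without the keratin-rich libraries r was 0.75 in *Nckap1l* (rho 0.54), 0.6 in *Dock2* (rho 0.43), 0.82 in *Gpsm3* (rho 0.62) and 0.32 in *Dok3* (rho 0.54). The call was then lost for r in *Dok3* (permutation p = 0.052, adjusted p = 0.077), where r was 0.13 in the first run (n = 24), and for rho in *Nckap1l* (permutation p = 0.035, adjusted p = 0.059). In the same 128 libraries, *Kit* and *Cpa3* had r of -0.4, -0.23, -0.46 and -0.1 in the 4 lines, with rho of -0.34, -0.24, -0.45 and -0.22. *Gpsm3* was the line that passed (permutation p = 0.0039 and 0.0053, adjusted p = 0.0083 and 0.012), and its r was -0.49 without the 2 farthest samples. *Etv1* and *Prkcq*, also listed for interstitial cells of Cajal, were not paired with *Kit*. In the *Gpsm3* line, *Ano1*, *Etv1* and *Prkcq* summed to a median of 344 CPM in the 3 keratin-rich libraries and 430 CPM in the others. Their mean log2 CPM was 4.85, 5.231 and 4.924 in those 3 and at most 4.907 in the others. The 3 genes thus did not move alike.

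**Figure D5:**
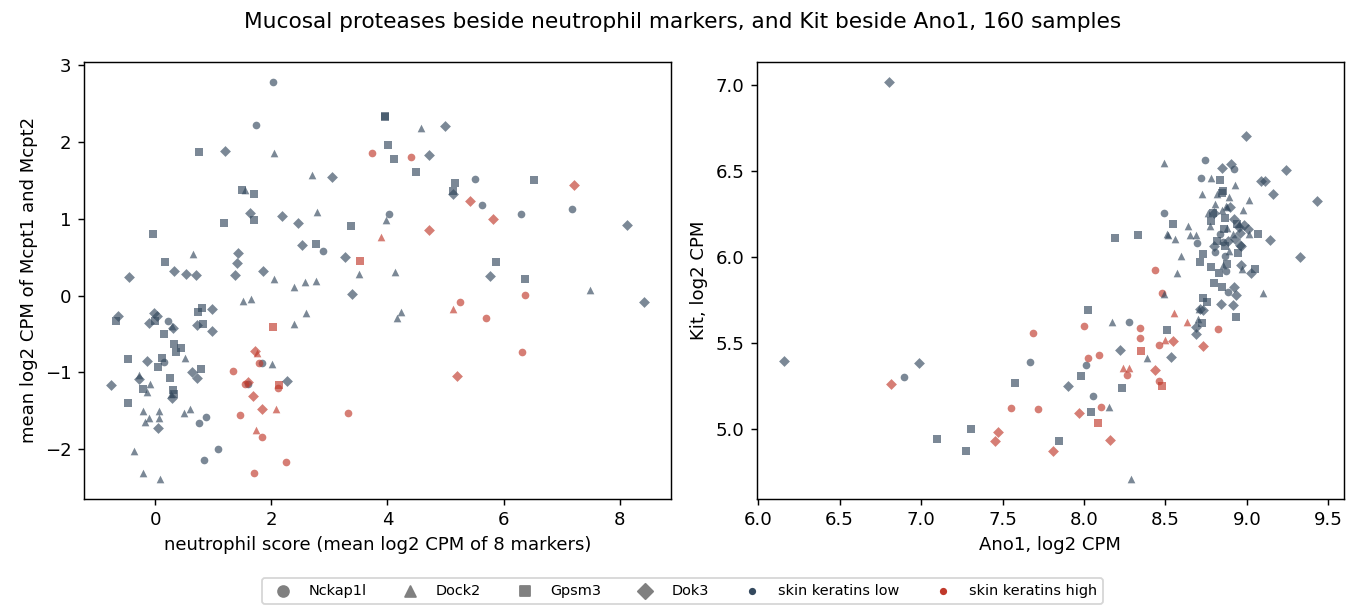
Left, mean log2 CPM of *Mcpt1* and *Mcpt2* against the mean of 8 neutrophil markers. Right, *Kit* against *Ano1*. Each point is 1 of 160 samples, with symbols for lines and red for the 32 libraries rich in skin keratins: both panels rise, with r from 0.5 to 0.66 at left and from 0.51 to 0.8 at right within lines.

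The genes most like each pattern were ranked by Spearman's rho over the 160 samples after the mean of each line and genotype was removed, among 16230 genes. For the mucosal mean they included *Mpeg1*, encoding perforin-2 of macrophages (0.78), *Pitpnm1*, *Lst1* and *Ms4a6c* (0.76 each). For the mean of *Mcpt4*, *Cma1*, *Cpa3* and *Tpsb2* they included *Nectin1* (0.76), *Krt80*, the skeletal actin *Acta1* and *Pla2r1* (0.75 each), and in the 128 libraries low in skin keratins *Trem2* (0.71), *Ms4a7* (0.7) and the complement genes *C1qc* (0.69) and *C1qa* (0.68), with the macrophage marker *Adgre1* (0.67). *Kit* was most like *Cacna2d2* (0.89), *Sspo* (0.88), *Chrm1* and *Trim2* (0.87 each) and *Appl2* (0.86), and *Fcer1a* like the keratin *Krt15* (0.62), *Spns2* and *Map7d1* (0.61 each), *Fhl3* and *Sprr1a* (0.6 each). In the 128 libraries low in skin keratins, *Kit* was most like *Pbld2* and *Sspo* (0.83 each), *Airn* (0.82), *Shisa2* and *Cacna2d2* (0.81 each). With *Ano1* the rho of *Kit* was lower than with these genes, at 0.68 over all libraries and 0.53 in the 128. *Fcer1a* was there most like *D16Ertd472e* (0.49), *Ehd4* and *Pxdc1* (0.48 each), *Ifi211* and *St3gal1* (0.46 each), and its rho with *Krt5* was -0.01 against 0.45 over all libraries, so its likeness to keratin genes rested on the keratin-rich libraries. *Cma1* by itself was most like *Hr* (0.65), *Ptgr1* (0.63) and *Pkp1* (0.61) over all libraries. In the 128 low in skin keratins it was most like *Hr* (0.54), *S100a14*, *Vsig1* and *Ptgr1* (0.53 each) and *Creb3l1* (0.52). Which cells held the *Cma1* RNA was not tested. These values are descriptions, and all genes share the depth and tissue composition of the same libraries.

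Other mast cell genes were read from a list of 23. In wild types of the *Dok3* line against *Dock2* and *Gpsm3*, 7 of the 18 tested were higher and 0 lower: *Mrgprb2* (2.67), *Mrgprb1* (2.24), *Hdc*, which makes histamine (1.67), *Srgn*, the core protein that holds granule proteases (1.08), *Csf2rb* (0.92), *Mitf* (0.56) and *Lat2* (0.53, log2 fold changes), with a median of 0.25 over the 18 against 0.02 over all genes tested, of which 28.9% were called. Without the libraries rich in skin keratins, *Lat2*, an adaptor of mast cell signalling, was the 1 of 16 that passed (0.56), where 16.1% of all genes did. In the *Nckap1l* line 8 of 18 were higher and 2 lower (*Tpsg1* -0.54 and *Rab27b* -0.22), against 31.5% of all genes called. Without those libraries 6 of 16 were higher and 0 lower, against 9.52% of all genes called: *Hdc* (2.70), *Il1rl1*, the IL-33 receptor (2.42), *Srgn* (1.94), *Csf2rb* (1.46), *Fcer1g* (1.17) and *Lat2* (0.52). *Hdc* and *Srgn* are also expressed by neutrophils, and 3 of 8 neutrophil markers were higher in the same comparison, *S100a9* by 3.71 on the log2 scale. The part of neutrophils in the values of all 6 genes was not tested. In the 4 knockout comparisons 0 of the 16 to 20 listed genes tested passed.

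A second list held 12 growth and homing signals of mast cells. The integrin genes *Itgae* (0.29) and *Itgb7* (0.46), the IL-9 receptor gene *Il9r* (0.71) and *Tgfb1* (0.45), which induces *Mcpt1* in mucosal mast cells, were higher in *Dok3* wild types, 4 of 9 tested and none lower, against 28.9% of all genes called. Without the keratin-rich libraries 3 of them passed, all but *Tgfb1*, against 16.1%. Compared with the same lines, *Nckap1l* wild types had 3 of 9 higher, *Il10* (1.89), *Il33* (1.20) and *Tgfb1* (0.46), and *Kitl* lower (-0.19), against 31.5% of all genes called. Without the keratin-rich libraries 4 of 9 were higher and 0 lower, against 9.52%: *Il10* (2.38), *Il33* (1.61), *Itgb7* (0.88) and *Tgfb1* (0.65). The part of neutrophils in these *Nckap1l* values was not tested. *Il3* and *Il9* had a median count of 0. No gene of this list passed in a knockout comparison.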

How the data were processed

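The authors aligned single-end reads of 100 bases with STAR and counted them per Ensembl gene with featureCounts (Subread) on mm10, per the labels and the submitters' processing notes, which give no versions or strand setting. The deposited files hold raw counts, 1 file per mouse, for 39179 genes. Symbols came from GENCODE M21 and matched 37693 genes (96.2%) holding 99.67% of counts. Levels are CPM over the sample's total, except those of the knocked-out genes and of *Krt5*, for which the totals were scaled by TMM. The floor of 3 counts covers counting error only. Values after ± are SDs between mice or standard errors of the fits, which include the spread between mice. No pair of samples in a group agreed within sampling noise (lowest chi-square per gene 3.74), and p-values measure the spread between these mice.

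Counts were tested with edgeR 4.0.16 in R 4.3.3 (TMM, filterByExpr, glmQLFit and glmQLFTest, Benjamini-Hochberg over all genes, threshold 0.05), 1 fit per line for knockout and sex and 1 for all wild types, with sex as a covariate where a line held both. limma-voom (limma 3.58.1), the study's own method, and DESeq2 1.42.0 were alternatives. The edgeR, limma-voom and DESeq2 fits were tried on simulated counts for the *Dock2* knockout and the *Dok3* line comparison. The other steps were not tested in this way. Correlations used log2 CPM (TMM, prior count 2) and two-sided permutation with 100000 resamples in scipy 1.17.1. The members, lists and tests were chosen with earlier results of these data known. Named genes were the 8 members, genes of other lists past the threshold or with the smallest p, and the 5 genes most like each pattern, some of which are not reported here. The keratin limit, the values without those libraries, those without the first run of *Nckap1l* sample numbers and the tryptase shares were chosen after seeing the data. Promoters are RefSeq sequences.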

Additional observations from a re-analysis of the deposited data

Results flagged for a closer look

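In each line, genotype and sex, the gap between the highest or lowest sample and its neighbour was compared with the group's range on log2 CPM in the groups of 4 to 10 samples. Of 40 sets of gene and group examined, 7 passed Dixon's 95% limit, which normally distributed values pass in about 1 in 20. That rate does not hold for sets with samples at 0 counts, so the 7 cannot be set against it. Among the 8 *Dock2* knockout females, 1 sample low in skin keratins lay above the rest in *Mcpt1* (gap over range 0.709, at 2.73 against 0.32 for the next). Another, the 1 library of that group rich in skin keratins, did so in *Mcpt4* (0.702, 2.45 against -1.34), in *Tpsb2* (0.573, 1.9 against -0.88) and in *Fcer1a* (0.695, -0.99 against -2.36). In the 10 *Dock2* knockout males the lowest *Cpa3* value stood apart (0.529), that of a library with 0 counts of the gene. *Fcer1a* did so in the highest of 4 *Nckap1l* knockout females (1.0), a keratin-rich library, with the other 3 at 0, and *Kit* in the highest of 8 *Nckap1l* wild-type females (0.629).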

How the results depend on the processing

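Of 608 estimates for the 8 genes under other settings, most kept their direction and side of the threshold, 33 lost a call, 5 gained one and 2 called values changed direction, and 91 changed sign in all. *Kit* in *Nckap1l* wild types became 0.22 (adjusted p = 1) in the knockout samples without keratin-rich libraries, and *Mcpt4* became -0.29 (adjusted p = 0.913) without the first run of *Nckap1l* sample numbers. Among the members of the *Dok3* line comparison (3 called), 0 were called in knockout samples, 1 in males without keratin-rich libraries, 1 with the skin score and 1 without those libraries. For *Nckap1l* wild types (4 called), 0 were called in males, in males or knockout samples without keratin-rich libraries, with the skin score or without the first run. In *Gpsm3* against *Dock2* 1 was called with the neutrophil score.

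Counts of all genes called moved more. The *Nckap1l* knockout (1) gave 11 with DESeq2, 0 with limma-voom, in males alone, without the sex covariate or without keratin-rich libraries, 2 with the neutrophil score, 27 without the filter, 4 with the sample-number block, 9 with the skin score and 189 with the smooth muscle score. The *Dock2* knockout (6) gave 61 with DESeq2, 0 with limma-voom, 1 in males, 17 with the neutrophil score, 31 without the filter, 46 with the skin score, 41 with the smooth muscle score and 90 without keratin-rich libraries. The *Gpsm3* knockout (1) gave 2, 32, 36, 5 and 2 with DESeq2, no filter, skin score, smooth muscle score and without those libraries. The *Dok3* knockout (0) gave 15 without the filter and 1 with either score. The difference among lines (144) gave 1 with limma-voom, 274 with the skin score and 405 without those libraries. Sex in *Dock2* (1762) gave 2839 with the skin score, 358 in wild types and 3214 without those libraries. Sex in *Nckap1l* (45) gave 225 with DESeq2, 240 with the neutrophil score, 18 with the sample-number block, 304 with the skin score, 121 with the smooth muscle score, and 9 in wild types and 9 without those libraries. The *Dok3* line (5607) gave 3356 in knockout samples, 3340 in knockout samples without those libraries, 2611 in males without them, 1386 against the second *Gpsm3* run alone and 3121 without those libraries. *Gpsm3* against *Dock2* (27) gave 14 with DESeq2, 15 in knockout samples, 3 with limma-voom, 5 in males without those libraries, 57 without the filter, 113 with the skin score, 10 with the smooth muscle score, 60 without the first *Nckap1l* run and 8 without those libraries. *Nckap1l* wild types (6111) gave 2000 in knockout samples, 31 in knockout samples without those libraries, 124 in males, 193 in males without them, 2454 with the neutrophil score, 1347 with the skin score, 463 without the first run and 1842 without those libraries. The causes were not tested. No paired analysis was possible because the labels give no replicate number that groups share. Counts near 0 limit *Fcer1a*, *Mcpt4* and *Tpsb2*.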

Other observations

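*Tpsab1*, which encodes a second tryptase next to *Tpsb2*, took a different share of tryptase reads by line. In samples with at least 10 counts of both genes together, *Tpsab1* made up 29.4% ± 18 (SD, n = 20) of their sum in the *Dok3* line, from 0 to 54.3%, and 11.1% ± 8.0 (n = 32) in the C57BL6/J lines, from 0 to 31.2%. By line the share was 13.8% ± 7.64 (n = 19) in *Nckap1l*, 11.4% ± 7.78 (n = 6) in *Dock2* and 3.67% ± 4.13 (n = 7) in *Gpsm3*. The difference was 18.2 percentage points over all samples (two-sided permutation test, p = 6e-05), 19.3 in males (p = 8e-05), 20.6 in wild types (exact permutation test, 9 against 17 samples, p = 0.00064) and 16.4 in knockout samples (11 against 15, permutation p = 0.0097). Within the *Dok3* line both runs of sample numbers were above the C57BL6/J mean, at 26.3% ± 19.1 and 32.4% ± 17.2 (n = 10 each). The comparison was chosen after the values were seen, and strain and line cannot be told apart. The share was not computed with and without the keratin-rich libraries, of which there were 15 in *Nckap1l*, 5 in *Dock2*, 3 in *Gpsm3* and 9 in *Dok3*. *Tpsab1* had a median of 0.66 CPM in those libraries and 0 in the others. How far the line difference depends on them was not tested.

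In the *Dock2* line without keratin-rich libraries, 4 of 16 other mast cell genes were higher in males than in females, where 17.9% of all genes were called: *Hdc* (2.76 on the log2 scale), *Il1rl1* (1.35), *Srgn* (1.10) and *Fcer1g* (0.69, adjusted p from 0.00382 to 0.0303, edgeR). In the same samples 7 of 8 neutrophil markers were higher in males, *S100a8* by 4.80. The part of neutrophils in the values of all 4 genes was not tested.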
